A study of Mus musculus with 10 samples.

Results

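Acetylcholine receptors in the hippocampus were described as a set of 8 genes, the muscarinic receptors Chrm1 to Chrm5 and the nicotinic receptor subunits Chrna4, Chrna7 and Chrnb2. Members were chosen by gene symbol alone, and every probe set whose platform annotation gave 1 symbol equal to a member was kept. This gave 12 probe sets for 6 genes, out of 34945 probe sets with 1 symbol for 18193 genes and 45037 probe sets besides the array controls. No probe set matched Chrm2 or Chrm5, and both are not analysed here.

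Whole hippocampus was taken from inbred female Balb c/J mice that were born on 1 day and had been ranked by their activity on several days in the open field, a bare arena used to score exploration. By the sample titles 5 of these mice were High Exploration and 5 were Low Exploration, with 1 array of 1 colour for each mouse. No treatment or transgene separated the groups, and ages were not given in the labels of these samples. The design text of the series describes mice handled after birth and their CA1 region, so groups and tissue here follow the labels.

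Acetylcholine reaches the hippocampus mainly through axons from the septum, and also comes from scarce local neurons. Muscarinic receptors are coupled to G proteins, with Chrm1, Chrm3 and Chrm5 acting through Gq and phospholipase C, and Chrm2 and Chrm4 acting through Gi. Nicotinic receptors are cation channels built of 5 subunits, among which Chrna4 and Chrnb2 combine into the high-affinity receptor for nicotine, whereas Chrna7 can form a channel by itself and is prominent on hippocampal interneurons.

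To ask whether receptor expression differed between genetically identical mice of high and low exploration, the MAS 5.0 signal of each probe set was compared on the log2 scale with limma, with Benjamini-Hochberg adjustment over all 45037 probe sets. MAS 5.0 is the Affymetrix summary of a probe set, in arbitrary units, scaled so that each array has the same trimmed mean. None of the 12 receptor probe sets passed an adjusted p of 0.05, where 0.0711% of all probe sets passed (32, of which 29 were lower and 3 higher in High Exploration mice). An unadjusted p under 0.05 was found for 3 receptor probe sets that were lower in High Exploration mice, of Chrm1, Chrm4 and Chrna4, where 16.8% of all probe sets met this rule, and 1 higher, for Chrna7, where 4.48% did. The groups did not overlap for 1 receptor probe set that was lower, of Chrna4, and for none that was higher, where 4.84% and 1.17% of all probe sets were so separated.

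The direction of the receptor probe sets lay close to that of the array as a whole. Differences are given as High minus Low Exploration throughout. Of the 12 probe sets, 10 (83.3%) had a negative difference, as did 69.0% of all probe sets, and the median difference was −0.48 for the receptors and −0.47 for all. With arrays centred on their medians these medians were 0.05 and 0.07, and at equal hybridisation controls 0.12 and 0.14. Over the whole array the split at an unadjusted p under 0.05, 7569 lower and 2018 higher as deposited, turned to 2300 lower and 5587 higher with median centring. This general shift depended on the signal level. When all probe sets were divided into 10 deciles of mean signal, the median difference lay between −0.65 and −0.47 in the lowest 8 deciles, at −0.17 in decile 9 and at 0.43 in decile 10. Of the 12 receptor probe sets, 6 lay inside the interquartile range of their own decile, 4 below it and 2 above it. Precision is limited by having 5 arrays in each group, and in whole tissue fewer cells of a type and less RNA per cell cannot be told apart.

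The arrays of the groups also differed in their control probe sets. Hybridisation controls, which are added in a fixed amount before hybridisation, averaged 13.6 ± 0.308 in the High Exploration group and 14.2 ± 0.293 in Low Exploration mice on the log2 scale (SD, n = 5 each, exact 2-sided permutation p = 0.0159). Poly-A controls, the usual spikes into the RNA before labelling, averaged 11.6 ± 0.491 in High and 13.1 ± 0.443 in Low Exploration, with no overlap (exact 2-sided permutation p = 0.00794, the smallest possible). The Gapdh signal at the 3′ end over that at the 5′ end, a measure of RNA length, was 4.72 ± 0.481 in High and 3.72 ± 0.228 in Low Exploration in log2 units (exact 2-sided permutation p = 0.0159). The same ratio for Actb overlapped, at 5.30 ± 0.582 in High and 4.97 ± 0.751 in Low Exploration (exact 2-sided permutation p = 0.484). The part of these values in the receptor differences was not tested. Markers of hippocampal neurons were all 8 measured, 7 of them above the median signal of the array. Their mean log2 signal per array ranged from 9.54 to 9.83 in High and from 9.35 to 9.92 in Low Exploration. That mean takes the brightest probe set of each gene. Of all 20 probe sets of these markers 13 had a negative and 7 a positive difference. At an unadjusted p under 0.05, 4 were lower and 1 was higher, where 16.8% and 4.48% of all probe sets were. The higher one was of Neurod6, at 1.18 (limma adjusted p = 0.155). For 3 the groups did not overlap, all lower in High Exploration, where 4.84% of all probe sets were so separated. Their differences were −2.25 for Prox1, −2.11 for Slc17a7 and −1.54 for Neurod2 (limma adjusted p = 0.0962, 0.134 and 0.136). The brightest probe set of Neurod2 was at 0.57 and its remaining one at −1.11. The other probe sets of Prox1, both brighter than the one above, were at −1.44 and −0.74. Over the brightest probe set of each gene the median difference was 0.21.

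**Figure D1:**
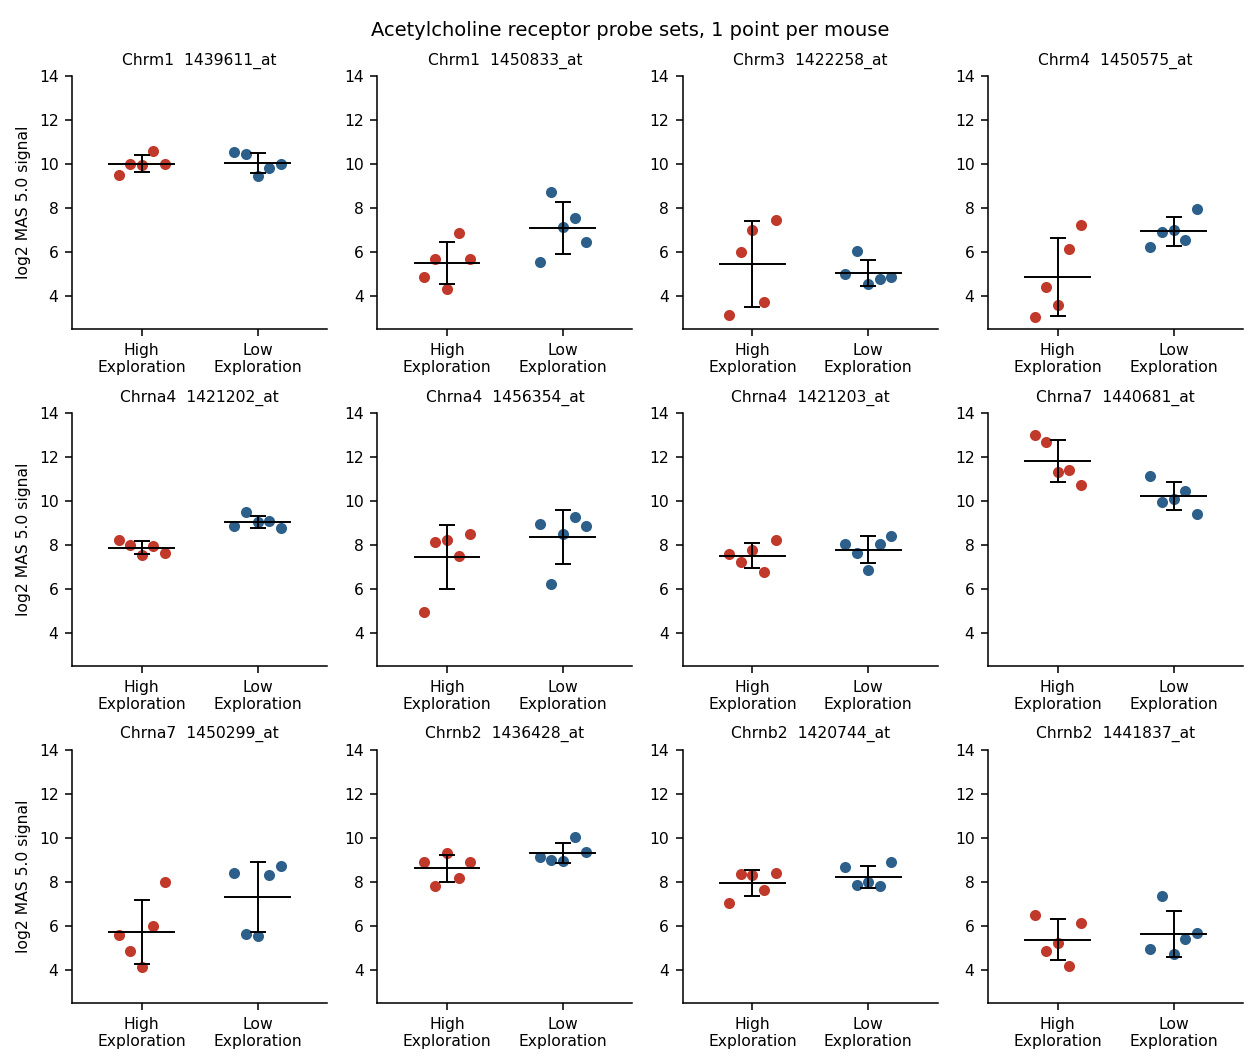
Log2 MAS 5.0 signal (vertical axis) of the 12 acetylcholine receptor probe sets in each mouse, with High Exploration (red) left of Low Exploration (blue), and the mean and SD of 5 mice per group in black. The groups are separate for Chrna4 probe set 1421202_at alone, and Chrna7 probe set 1440681_at has the highest signals of the 12.

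Chrna7, the subunit of the alpha-bungarotoxin-sensitive receptor, had the most positive difference of the 12, and its other probe set had one of the most negative. Probe set 1440681_at gave signals of 8158, 6595, 2561, 2765 and 1715 in the High Exploration mice, against 2237, 987, 1108, 1429 and 687 in the Low Exploration mice. All 5 High Exploration mice lay above the Low Exploration median, the first and the second stood well above the rest, and the ranges overlapped through Low Exploration replicate 1 and High Exploration replicate 5. The signal was 3.07-fold higher in the High Exploration group (95% interval 1.39 to 6.78), a log2 difference of 1.62 with an SE of 0.53, and did not pass limma's adjusted threshold (adjusted p = 0.151). This probe set sits in the highest decile, where the interquartile range of all differences was −0.26 to 0.97.

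The difference of probe set 1440681_at kept its sign under every scaling, filter and omission of 1 array that was run, 19 in all, with adjusted p between 0.0765 and 0.292. It was 1.33 without High Exploration replicate 1 and 1.89 without High Exploration replicate 5. High Exploration replicates 1 and 2, with the highest Chrna7 signals, had the lowest levels of the hybridisation controls (13.5 and 13.2) and of the poly-A controls (11.4 and 10.9). With quantile normalisation and cyclic loess the Chrna7 difference was 1.46 and 1.35, where the median of all probe sets was −0.02 and −0.01. With median centring and equal hybridisation controls it was 2.15 and 2.22, where that median was 0.07 and 0.14. Both of these add 1 constant to every difference. Interneuron markers were measured for 8 of 8 genes, 6 of them above the median signal of the array. They ranged from 8.99 to 10.3 in High and from 8.84 to 9.92 in Low Exploration in mean log2 signal. Of their 14 probe sets 1 was lower without overlap, of Slc32a1 (−1.39), and 1 higher, of Vip (1.29), with limma adjusted p of 0.137 and 0.146. Of all probe sets 4.84% and 1.17% were so separated. The part of interneurons in the Chrna7 value was not tested.

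The other probe set of Chrna7, 1450299_at, is the one whose annotation names a RefSeq mRNA of the gene. Its signals were 49.3, 29.03, 18.0, 64.3 and 254 in High Exploration, against 342, 50.3, 47.3, 321 and 427 in Low Exploration. High Exploration replicates 1, 4 and 5 lay inside the Low Exploration range. The log2 difference was −1.61 with an SE of 0.83 (limma adjusted p = 0.278), and between −1.07 and −0.98 under 4 other scalings (quantile normalisation, median centring, cyclic loess and equal hybridisation controls). Within each array the log2 gap between both Chrna7 probe sets averaged 6.11 ± 2.08 in the High Exploration group and 2.88 ± 1.59 in Low Exploration mice (SD, n = 5 each), a comparison chosen after the values were seen and given with no test. A constant scaling of an array leaves this gap as it is, but the shift between the groups was not constant over signal level. Its median was 0.43 in decile 10, which holds 1440681_at, and −0.61 in decile 4, which holds 1450299_at. The part of this shift in the gap was not tested. With group means removed, the pair correlated at r = −0.19 over the 10 arrays, a description of arrays that share a scaling. The files name the transcript records from which the probe sets were designed, but the part of the Chrna7 transcript that each covers was not analysed here.

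**Figure D2:**
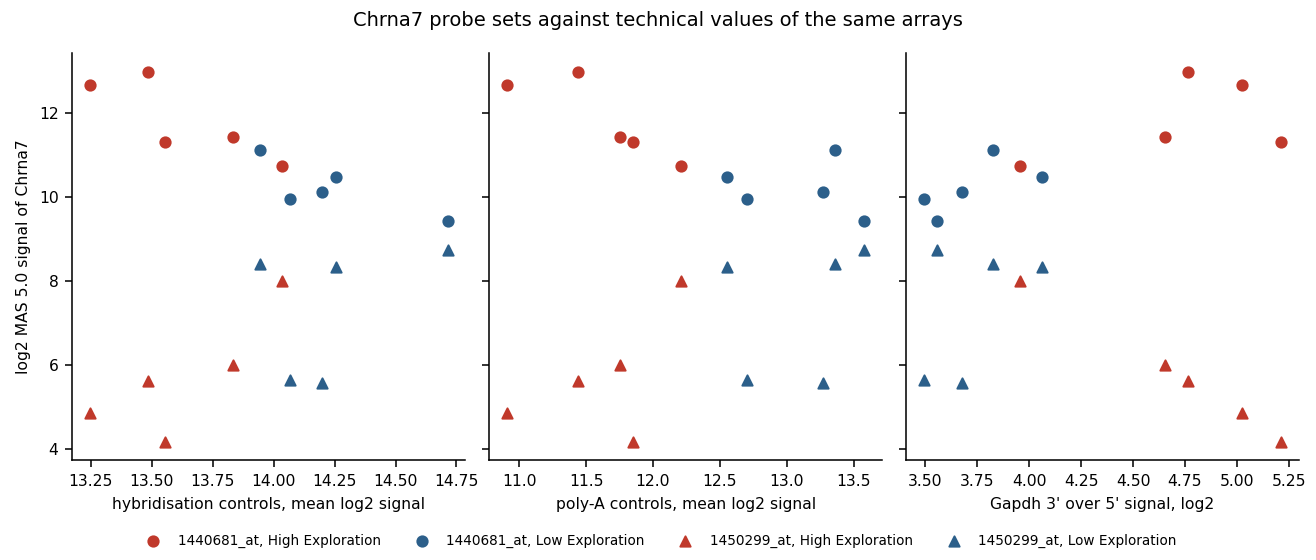
Log2 MAS 5.0 signal of the Chrna7 probe sets (vertical axis; circles 1440681_at, triangles 1450299_at) against the mean log2 signal of hybridisation controls, that of poly-A controls and the log2 ratio of Gapdh 3′ over 5′ signal (horizontal axes), 1 point per array, High Exploration red and Low Exploration blue. The 2 highest circles belong to the High Exploration arrays with the lowest control levels.

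Chrna7 lies on chromosome 7 (chr7:63098692-63212526, GRCm38.p6). The 250 bases before its RefSeq start (chr7:63212527-63212776, minus strand) are shown as context for this gene and for Chrna4, whose brightest probe set separated the groups. Capitals mark a GC box (GGGCGG, or CCGCCC on the other strand) and an E-box (CACGTG).
Chrna7: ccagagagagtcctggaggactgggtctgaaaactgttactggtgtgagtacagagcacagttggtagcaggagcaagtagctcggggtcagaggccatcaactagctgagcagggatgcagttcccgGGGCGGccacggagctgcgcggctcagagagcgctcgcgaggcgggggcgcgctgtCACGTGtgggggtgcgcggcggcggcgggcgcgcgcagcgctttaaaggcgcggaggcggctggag
Chrna4: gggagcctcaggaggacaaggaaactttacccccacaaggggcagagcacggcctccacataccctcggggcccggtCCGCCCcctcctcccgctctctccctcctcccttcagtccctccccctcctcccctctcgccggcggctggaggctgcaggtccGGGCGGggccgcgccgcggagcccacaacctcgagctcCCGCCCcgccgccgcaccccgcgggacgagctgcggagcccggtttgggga
The Chrna4 sequence is that of chr2:181039178-181039427, also on the minus strand, before a RefSeq start that lies inside the annotated gene (chr2:181022311-181043579). Both are rich in G and C, at 67.2% for Chrna7 with 25 CpG and at 74.4% for Chrna4 with 24 CpG, where the median of 32851 mouse promoters of this length was 52.4% with 6 CpG. The Chrna7 window holds 1 GC box and 1 E-box that do not overlap, and the Chrna4 window holds 3 GC boxes and no E-box. Of all promoters 32.7% hold a GC box and 6.02% this E-box on either strand. The cyclic AMP element TGACGTCA (1.55% of promoters) and the TATA box TATAAA (12.4%) were searched for on both strands as well, with no match in either window.

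Chrna4, the alpha subunit of the high-affinity nicotinic receptor, had 3 probe sets with negative differences of unequal size. The brightest, 1421202_at, was the only receptor probe set that separated all mice by group. Its signals were 304, 261, 188, 249.5 and 199 in High Exploration, against 462, 717, 526, 540.1 and 438 in Low Exploration. The highest High Exploration value stood below the lowest Low Exploration value. Mean log2 signal was 7.89 ± 0.29 in the High Exploration group and 9.05 ± 0.28 in Low Exploration mice (SD, n = 5 each), 2.23-fold lower in High Exploration, with a difference of −1.16 and an SE of 0.36 (limma adjusted p = 0.146). The median of its decile was −0.47, with an interquartile range of −0.97 to 0.14. Under these 4 scalings the difference lay between −0.71 and −0.55, and it was then no longer under an unadjusted p of 0.05.

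The other Chrna4 probe sets gave ranges that overlapped. Probe set 1456354_at gave 30.8, 284, 304, 182 and 363 in High Exploration, against 493, 75.8, 365, 627 and 467 in Low Exploration. The lowest value of each group stood far from the other 4. Its difference was −0.90 with an SE of 0.75 (limma adjusted p = 0.491). It was −0.27 without High Exploration replicate 1, −1.43 without Low Exploration replicate 2, and between −0.40 and −0.29 under the 4 scalings. Probe set 1421203_at gave 193, 149, 221, 111 and 305 in High Exploration, against 268, 201, 116, 264 and 338 in Low Exploration, a difference of −0.27 with an SE of 0.44 (limma adjusted p = 0.735). The groups were largely mixed for this probe set, and the sign of its difference turned under the same 4 scalings, although its annotation names the same transcript record as that of 1421202_at. With group means removed, 1421202_at correlated with 1456354_at at r = −0.82 and with 1421203_at at r = −0.47 over the 10 arrays. Without High Exploration replicate 1 and Low Exploration replicate 2, the mice with the outlying values on 1456354_at, these correlations were −0.39 and −0.72 over 8 arrays, an omission chosen after the values were seen.

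Chrnb2, the beta subunit that pairs with Chrna4 (chr3:89753448-89764632), had 3 probe sets, all with negative differences and none under an unadjusted p of 0.05. The brightest, 1436428_at, gave 479, 225, 641, 293 and 490 in High Exploration, against 573, 520, 503, 1066 and 654 in Low Exploration. All but High Exploration replicate 3 lay below every Low Exploration mouse. The difference was −0.68 (95% interval −1.61 to 0.25, limma adjusted p = 0.364), but between −0.36 and −0.07 under the 4 scalings. Probe set 1420744_at, whose annotation names a RefSeq mRNA, gave 131, 330, 320, 200 and 346 in High Exploration, against 408, 236, 254, 224 and 475 in Low Exploration, a difference of −0.29 (95% interval −1.23 to 0.65). The third, 1441837_at, was dim, with 90.0, 28.9, 38.3, 18.6 and 70.9 in High Exploration, against 30.9, 166, 26.5, 43.0 and 51.6 in Low Exploration, a difference of −0.24 (95% interval −1.54 to 1.06). For both of these the groups were mixed, and both differences changed sign once arrays were set to equal medians.

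**Figure D3:**
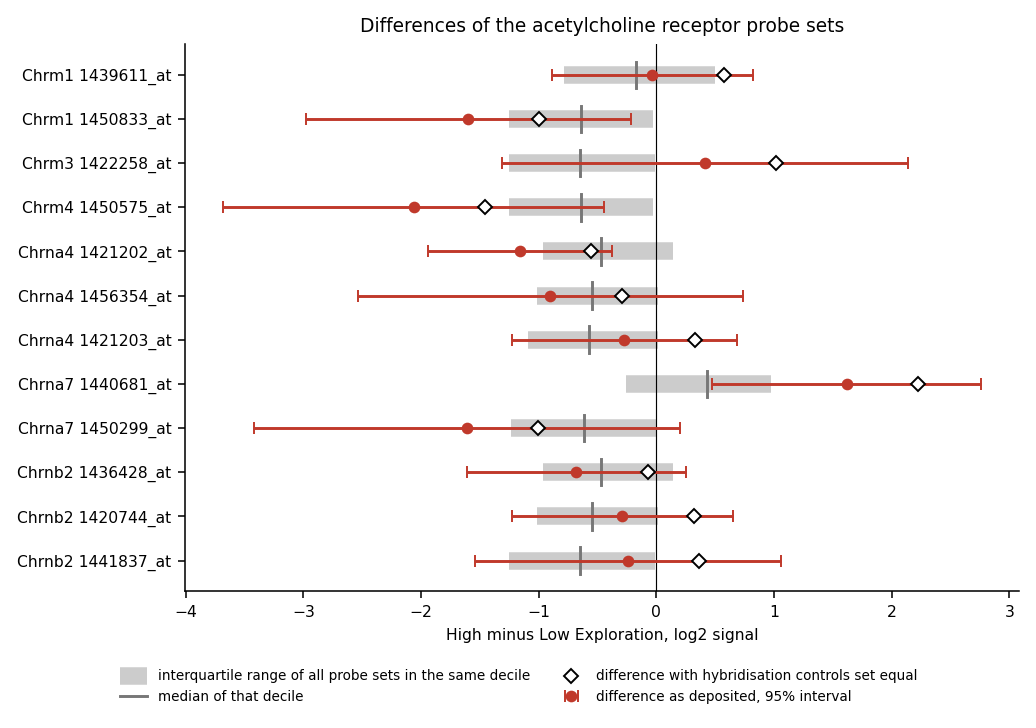
Difference in log2 signal, High minus Low Exploration (horizontal axis), of each receptor probe set (rows), as deposited with its 95% interval from limma (red) and with hybridisation controls set equal (open diamonds), over the interquartile range (grey bar) and median (grey line) of all probe sets in the same decile of mean signal. Chrna7 1440681_at lies at 1.62 as deposited and 2.22 at equal controls, right of its grey bar, and Chrm4 1450575_at lies at −2.06, left of its own.

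Chrm1, the main muscarinic receptor of hippocampal pyramidal neurons (chr19:8664005-8683606), had probe sets that differed from each other. The brighter, 1439611_at, gave 732, 1034, 999, 1555 and 1019 in High Exploration, against 1490, 1403, 696, 907 and 1026 in Low Exploration. The groups overlapped almost entirely, with a difference of −0.04 and a 95% interval of −0.89 to 0.82 (limma adjusted p = 0.966). On the linear scale the interval of High over Low Exploration is 0.539 to 1.77, and the sign of the difference turned with median centring (0.50) and with several omissions of 1 array. The dimmer, 1450833_at, whose annotation names a RefSeq mRNA, gave 29.9, 52.4, 20.3, 117 and 52.7 in High Exploration, against 47.5, 432, 143, 190.5 and 89.4 in Low Exploration. All 5 High Exploration mice lay below the Low Exploration median, and the signal was 3.03-fold lower in High Exploration, a difference of −1.60 with an SE of 0.64 (limma adjusted p = 0.188). It lay between −1.06 and −0.96 under the 4 scalings and at −1.19 without Low Exploration replicate 2, the brightest array for this probe set, and in none of these was it under an unadjusted p of 0.05.

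Chrm4, the Gi-coupled receptor best known from striatum and also found on cholinergic terminals (chr2:91922189-91929835), had the most negative difference of the 12. Probe set 1450575_at gave 8.25, 21.7, 12.1, 70.4 and 153 in High Exploration, against 76.6, 123, 131, 94.9 and 254 in Low Exploration. High Exploration replicate 5 alone reached into the Low Exploration range. The log2 difference was −2.06 with an SE of 0.75 (limma adjusted p = 0.167). This rests on low signals, since 3 of the High Exploration values stood below 23.0, the 10th percentile of all signals on all arrays. With signals under 23.0 set to that floor the difference was −1.56, and with 23.0 added to every signal it was −1.30. The difference was −2.65 without High Exploration replicate 5 and −1.60 without High Exploration replicate 1, and lay between −1.53 and −1.42 under the 4 scalings. Markers of striatum and cholinergic neurons, 6 of 8 measured and 3 of these above the median signal of the array, ranged from 6.42 to 7.51 in High and from 6.98 to 8.09 in Low Exploration in mean log2 signal. Of their 9 probe sets 7 had a negative and 2 a positive difference, where 69.0% of all probe sets were negative. At an unadjusted p under 0.05, 2 were lower and 0 higher, where 16.8% and 4.48% of all probe sets were. Over the brightest probe set of each gene the median difference was −0.58. The part of these markers in the Chrm4 value was not tested.

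Chrm3, a Gq-coupled receptor (chr13:9875486-10361062), was measured by 1422258_at near the lower end of the signal scale. It gave 8.78, 64.7, 131, 13.2 and 175 in High Exploration, against 32.7, 66.1, 23.6, 27.4 and 29.4 in Low Exploration. The High Exploration mice held both the lowest and the highest values and enclosed the Low Exploration range. The difference was 0.41 with a 95% interval of −1.31 to 2.13 (limma adjusted p = 0.782). It was −0.082 without High Exploration replicate 5, between 0.95 and 1.05 under the 4 scalings, and 0.85 with signals under 23.0 set to that floor. Over all receptor probe sets 8 of 60 High Exploration signals and 0 of 60 Low Exploration signals stood below the 10th percentile of 23.0 (13.3% and 0%), where 12.6% of all signals on High Exploration arrays and 7.44% on Low Exploration arrays did.

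Probe sets of 1 receptor gene were weakly or negatively correlated from mouse to mouse. Among the 4 genes with more than 1 probe set there were 8 pairs, and with group means removed 5 of them correlated below 0, with r between −0.82 and 0.27 over 10 arrays. The brightest probe set of each gene was also set against at least 18047 others with a signal above the median, with group means removed, as a description of the variation within groups over 10 arrays that share a scaling. This likeness says nothing of the difference between the groups. That difference was opposite in sign for Jcad (0.82) and Pcmtd1 (0.86) against −1.16 for Chrna4, and for Ogfod1 (0.91) against −0.68 for Chrnb2. It was also opposite for Hrh3 (−1.45) and Galnt16 (−0.60) against 0.41 for Chrm3, and for Rbm33 (0.12) and Spon2 (0.56) against −0.04 for Chrm1. Its sign was the same for Marchf7 (1.43) and Slc39a10 (1.82) beside 1.62 for Chrna7, and for Selenoh (−0.07) beside Chrnb2. So it was for Rbm27 (−1.76) and Khdrbs2 (−0.21) beside −2.06 for Chrm4. Each r given here is 1 of the 2 highest of its search, so its height is in part a product of the search. Within groups the nearest to Chrna7 was Marchf7 (r = 0.99), followed by Slc39a10 (r = 0.98). Nearest to Chrna4 were Jcad (r = 0.97) and Pcmtd1 (r = 0.93), and Chrnb2 was nearest to Selenoh (r = 0.95) and Ogfod1 (r = 0.92). Among muscarinic receptors Chrm1 was nearest to Rbm33 (r = 0.91) and Spon2 (r = 0.90), Chrm3 to Hrh3 (r = 0.98), a histamine receptor, and Galnt16 (r = 0.96), and Chrm4 to Rbm27 (r = 0.945) and Khdrbs2 (r = 0.944).

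The other genes of cholinergic signalling were taken from 5 lists, with 54 of 58 genes measured by 135 probe sets. None passed limma's adjusted threshold. The unadjusted p was under 0.05 for 13 that were lower (9.63%) and 8 that were higher (5.93%) in High Exploration, where the array as a whole had 16.8% and 4.48%. The median difference was −0.40. Of the 135, 90 (66.7%) had a negative difference. The groups did not overlap for 3 of the 135 that were lower and 1 that was higher. Of all probe sets 4.84% and 1.17% were so separated.

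The remaining nicotinic subunits, 12 of 13 measured by 21 probe sets, had a median difference of −0.66, and none was under an unadjusted p of 0.05. The smallest p values belonged to Chrnd and Chrng, subunits of the muscle receptor, with differences of −1.51 and −0.75 (limma adjusted p = 0.256 and 0.274). The signal of this Chrng probe set was between 3.50 and 7.13 in High and between 6.52 and 11.8 in Low Exploration, under the 10th percentile of the arrays.

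Genes of acetylcholine synthesis, transport and breakdown, 11 of 11 measured by 26 probe sets, had 19 negative and 7 positive differences with a median of −0.34. Colq, the collagen tail that anchors acetylcholinesterase, had a difference of −2.09 with an SE of 0.64 (limma adjusted p = 0.144). Its signals were low, between 14.1 and 171 in High and between 103 and 258 in Low Exploration. Slc44a1, a choline transporter, had one of 1.64 with an SE of 0.60 (limma adjusted p = 0.168), whereas its 3 other probe sets were at −1.37, −0.89 and −0.31. Chat, the enzyme that makes acetylcholine, fell outside the naming rule and was picked after its values were seen. Its signal on 1440070_at ran between 257 and 454 in High and between 495 and 865 in Low Exploration without overlap, a difference of −0.86 (limma adjusted p = 0.217). Of all probe sets 4.84% were lower without overlap. The vesicular transporter Slc18a3 and the choline transporter Slc5a7, the other genes that mark cholinergic terminals and cells, were dim and differed by −0.14 and −0.05 (limma adjusted p = 0.925 and 0.983).

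Chaperones and Ly6 proteins that assemble or modulate nicotinic receptors, 10 of 10 measured by 17 probe sets, had a median difference of −0.54. Ly6e was at −1.80 on one probe set (limma adjusted p = 0.187) and −1.36 on the other. Ly6h, a bright neuronal Ly6 protein that limits Chrna7 receptors at the cell surface, was at 1.21 (limma adjusted p = 0.213), with signals between 3828 and 19360 in High and between 2264 and 6720 in Low Exploration. Its groups overlapped.

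The Gq and M-current branch, through which Chrm1 and Chrm3 act, had 10 of 12 genes measured by 35 probe sets, with 19 negative and 16 positive differences and a median of −0.18. The phospholipase Plcb4 was at −2.41 with an SE of 0.66 on 1430871_at (limma adjusted p = 0.130), while its 4 other probe sets lay at −1.34, 1.20, −0.45 and 0.45. Signals of 1430871_at lay between 22.8 and 89.6 in High and between 65.3 and 599 in Low Exploration. Plcb1, the phospholipase C coupled to Chrm1 in hippocampus, was at 1.59 with an SE of 0.51 on the bright probe set 1435043_at (limma adjusted p = 0.148), while its 4 others lay at −1.67, −0.96, −0.99 and −0.54.

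The Gi and GIRK branch, through which Chrm4 acts, had 11 of 12 genes measured by 36 probe sets, with 25 negative and 11 positive differences and a median of −0.47. Gng2, a G protein gamma subunit, was at −2.33 with an SE of 0.59 on 1418452_at (limma adjusted p = 0.120). This probe set was dim, with signals between 10.1 and 59.7 in High and between 47.8 and 319 in Low Exploration. Its 3 others were brighter and lay at 1.12, 1.03 and 0.30. Kcnj3, a GIRK channel subunit, had groups that did not overlap on 1444336_at, with signals between 287 and 588 in High and between 879 and 1243 in Low Exploration, a difference of −1.32 with an SE of 0.37 (limma adjusted p = 0.134). Its 3 other probe sets lay at 1.07, −0.25 and 0.48. As for Chrna7, probe sets of 1 gene took opposite signs for Plcb1, Plcb4, Gng2, Kcnj3 and Slc44a1.

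**Figure D4:**
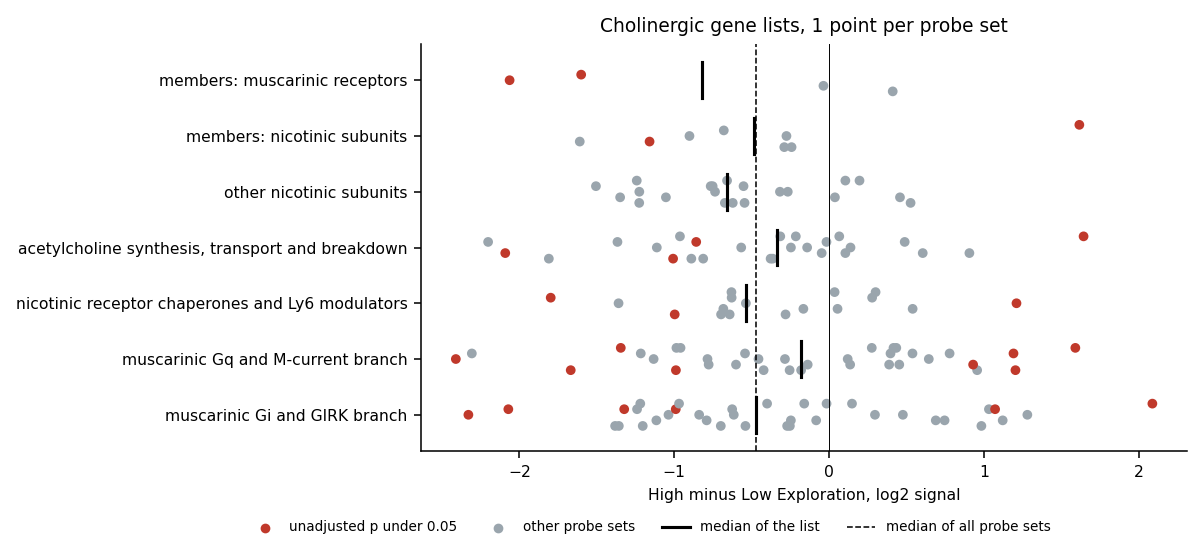
Difference in log2 signal, High minus Low Exploration (horizontal axis), of every probe set of the receptor genes and of the 5 cholinergic lists (rows), with the median of each list (black line) and of all probe sets (dashed line, −0.47). Red points had an unadjusted p under 0.05, and none of the points passed the adjusted threshold.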

How the data were processed

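The authors deposited a MAS 5.0 signal intensity for each probe set on Affymetrix mouse arrays, made in Expression Console version 1.1 with no normalisation of the distribution, from RNA purified on Qiagen columns. The study's methods name Qiagen columns or Trizol and do not say which served these mice. The labels give the standard labelling protocol and the study's methods a double round of amplification, which is not settled here. The 2% trimmed mean of each array was 500.0, and no signal was 0 or missing. After 64 control probe sets were left out, log2 signals of 45037 probe sets were compared with limma 3.58.1 (lmFit and eBayes, R 4.3.3) with no filter on low signal. Values with 1 number per array were compared by an exact permutation test over 252 assignments. Gene names came from the platform annotation, where 932 probe sets had several symbols and 9160 none, and all 12 receptor probe sets matched RefSeq symbols. Each array came from its own mouse, so p-values measure the spread between mice and between arrays together within the groups. Differences between arrays that run along the groups, as those of the controls did, are not part of that spread. The receptor genes and the lists were chosen with earlier results of these data known. Named beside the receptors were the 2 genes with the smallest p of each list and, for each receptor, the 2 genes with the most similar pattern. Alternatives were a filter, 4 scalings, a pseudocount and a floor of 23.0, other limma settings and leaving out each array. The fit was tested on simulated data with independent noise for each probe set. That simulation held no shift over the whole array, so it cannot speak to the shift seen here. RefSeq promoters (GRCm38.p6) were found for 7 of the 8 genes.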

Additional observations from a re-analysis of the deposited data

Results flagged for a closer look

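The outlying value of a group was sought in 44 groups of 5 mice, 24 of them of receptor probe sets, by setting its gap to the nearest value against the range of the group on the log2 scale (critical value 0.71). It was found in 2, both for Chrna4 probe set 1456354_at, and chance gives about 1 in 20 groups. High Exploration replicate 1 had a signal of 30.8, with a gap of 0.719 of the range, and Low Exploration replicate 2 had a signal of 75.8, with a gap of 0.744 of the range. On the 1421202_at probe set of the same gene these mice had 304 and 717, each the highest signal of its group.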

How the results depend on the processing

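No receptor probe set passed limma's adjusted threshold under any alternative. A paired analysis was not possible because the titles carry numbers that are not shared between the groups. Probe sets that passed over the whole array, 32 as reported, numbered 51 with the filter on low signal, 58 with the pseudocount, 2 with an intensity trend and robust fitting together, 1 each with quantile normalisation, median centring, cyclic loess and equal hybridisation controls, and 0 to 50 when 1 array was left out. The receptor probe sets lower in High Exploration at an unadjusted p under 0.05, 3 as reported, numbered 1 with the filter, which kept 6 of the 12, and likewise with median centring and with equal hybridisation controls, and 0 with quantile normalisation and with cyclic loess. The count of those higher was 1 as reported. The median of all probe sets moved to −0.02 with quantile normalisation, 0.07 with median centring, −0.01 with cyclic loess and 0.14 with equal hybridisation controls. Chrna7 1440681_at was at 1.46, 2.15, 1.35 and 2.22 under these 4 scalings, and Chrna4 1421202_at at −0.71, −0.62, −0.71 and −0.55. Signs turned under the 4 scalings, in the same order, for Chrna4 1421203_at (0.26, 0.26, 0.29 and 0.33), Chrnb2 1420744_at (0.19, 0.25, 0.23 and 0.32) and Chrnb2 1441837_at (0.35, 0.29, 0.40 and 0.36). Chrm1 1439611_at turned to 0.055 with quantile normalisation, 0.50 with median centring and 0.57 with equal hybridisation controls. With 1 array left out, Chrm1 1439611_at ranged from −0.19 to 0.090, Chrm3 from −0.082 to 0.996 and Chrnb2 1441837_at from −0.52 to 0.19. Median centring and equal hybridisation controls add 1 constant to every difference, so that small negative ones turn by construction. The cause of the other turns was not tested. Dim probe sets limit the muscarinic receptors most.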
